A study of Homo sapiens with 6 samples.

Results

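Stem cell-like behaviour of tumour cells is often followed through a small set of genes, and 9 of them are described here in 786-O cells with and without knockdown of YB1: the surface proteins CD44 and PROM1, the transcription factors MYC, SOX4, SOX9 and KLF4, the chromatin regulator BMI1 and the enzymes ALDH1A1 and ALDH1A3. They were chosen by name, with earlier results of these data known, and all 9 were found among the 20030 genes of the expression table. 786-O is an established line of human cells from a clear cell carcinoma of the kidney. YB1, encoded by YBX1, is a protein that binds DNA and RNA and takes part in transcription and in the handling of mRNA. The control group (vector) was 786-O cells infected with lentivirus carrying a scrambled shRNA, and the knockdown group (shYB1) was 786-O cells infected with lentivirus carrying an shRNA against YB1. Both were selected with puromycin and are labelled with passages 16 to 18, and each had 3 RNA-sequencing libraries. A small hairpin RNA (shRNA) is cut by the cell into a short RNA that lowers the mRNA it matches. The design text of the series speaks of 3 independent shRNAs against YB1, each in triplicate, whereas the sample labels give a single shYB1 group of 3 libraries and name no hairpin. Whether these libraries carry the same hairpin or different ones is not stated, so the spread among them may or may not include differences between hairpins, and effects of a hairpin other than on YB1 cannot be told apart from those of the knockdown. Nothing states that the 3 libraries of a group came from separate cultures, so p-values measure only the spread between these libraries, which may be technical.

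Stemness denotes the ability of a cell to renew itself and to give rise to other cell types. CD44 is a receptor for hyaluronan, a sugar polymer of the extracellular matrix, and PROM1 (CD133) is a membrane protein of cell protrusions. Both are used to sort cells with tumour-initiating ability, and in the kidney PROM1 marks scattered tubular cells. MYC, SOX and KLF proteins are transcription factors of progenitor cells, BMI1 is part of a complex that keeps genes silent, and ALDH1A enzymes make retinoic acid and give rise to the aldehyde dehydrogenase activity by which stem-like cells are sorted.

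Expression was given as FPKM, in which the fragments of a gene are divided by the length of its transcript in kilobases and by the number of mapped fragments. FPKM summed over all listed genes to 282736, 283501 and 295887 in vector replicates 1 to 3 and to 285094, 288536 and 290881 in shYB1 replicates 1 to 3. Sequencing depth is unknown from FPKM, and the spacing of the lowest values gave only relative depths, between 0.984 and 1.09 times that of shYB1 replicate 1. Of 8 markers of renal carcinoma cells, 8 had a mean of at least 1 FPKM, with VIM the most abundant at 1419 FPKM (75.6% of the list's sum) and the renal transcription factor PAX8 between 75.6 and 78.7 FPKM in the 6 libraries. The summed level of this list was 1820, 1841 and 1911 FPKM in vector cells and 1875, 1894 and 1911 FPKM in shYB1 cells. Endothelial and fibroblast markers had 0 of 4 genes each at a mean of 1 FPKM, with sums of at most 0.475 and 0.422 FPKM in any library, PECAM1 and COL1A1 being the most abundant. Of 5 blood cell markers 1 reached that mean, CD68, a lysosomal protein that held 99.7% of a list sum of 24.8, 25.2 and 25.4 FPKM in vector and 22.1, 22.5 and 22.6 FPKM in shYB1 libraries, while CD3E and HBB were listed at 0 and PTPRC, which all white blood cells carry, did not exceed 0.0164 FPKM. The labelled cell type thus had its markers, and the listed markers of other cell types, except CD68, had means under 1 FPKM.

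The targeted gene was examined first. YBX1 mRNA was at 366.5, 372.8 and 377.9 FPKM in vector cells and at 166.7, 165.9 and 173.3 FPKM in shYB1 cells. Each shYB1 library was far below every vector library. On the scale of log2(FPKM + 0.1), on which changes of scarce genes come out too small, its fold change was −1.14 (standard error, SE, 0.031, adjusted p = 1.53e-08). Unless another filter is named, adjusted p come from limma with adjustment by Benjamini-Hochberg over the 10439 genes whose mean reached 1 FPKM, and genes with an adjusted p under 0.05 are called lower or higher in shYB1 cells. YBX1 has near-identical pseudogenes, and 30.7% of the 50-base words of its transcripts occur in transcripts of 5 other genes, so its exact level is uncertain.

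Of the 9 member genes, 8 passed the filter on low values and were tested, and PROM1 did not. ALDH1A1 and SOX4 were lower in shYB1 cells, ALDH1A3, KLF4 and BMI1 were higher, and CD44, MYC and SOX9 were not called. The 5 called members are set against a background in which 25.7% of all genes tested were called, 6.93% lower (723 genes) and 18.7% higher (1956 genes). Groups did not overlap for 7 of the 8 tested members, beside 42.6% of all genes tested. The members, and the gene lists around them given below, were chosen with earlier results of these data known. Their counts beside the shares of all genes therefore describe the members and lists only. The study's methods select genes on a fold change of 2 and a p under 0.05, without saying whether the p was adjusted. Read as an unadjusted p with a fold change of at least 2, 0 members were called in the same limma fit, beside 0.22% of all genes (23 genes), although at an unadjusted p under 0.05 alone 2 members were lower, beside 10.8% of all genes, and 5 were higher, beside 28.2%. With a fold change of at least 1.5 and the same p, 1 member, ALDH1A1, was lower, beside 0.575% of all genes. The median log2 fold change was 0.19 over the tested members and 0.06 over all genes tested. Of all calls 73.0% were higher, and this split moved to 48.8% with median-of-ratios rescaling and to 51.7% with quantile normalization, while the direction of each tested member was the same under every rescaling. In whole-culture RNA, a change in the share of cells that express a gene and a change of its RNA in each cell cannot be told apart.

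**Figure D1:**
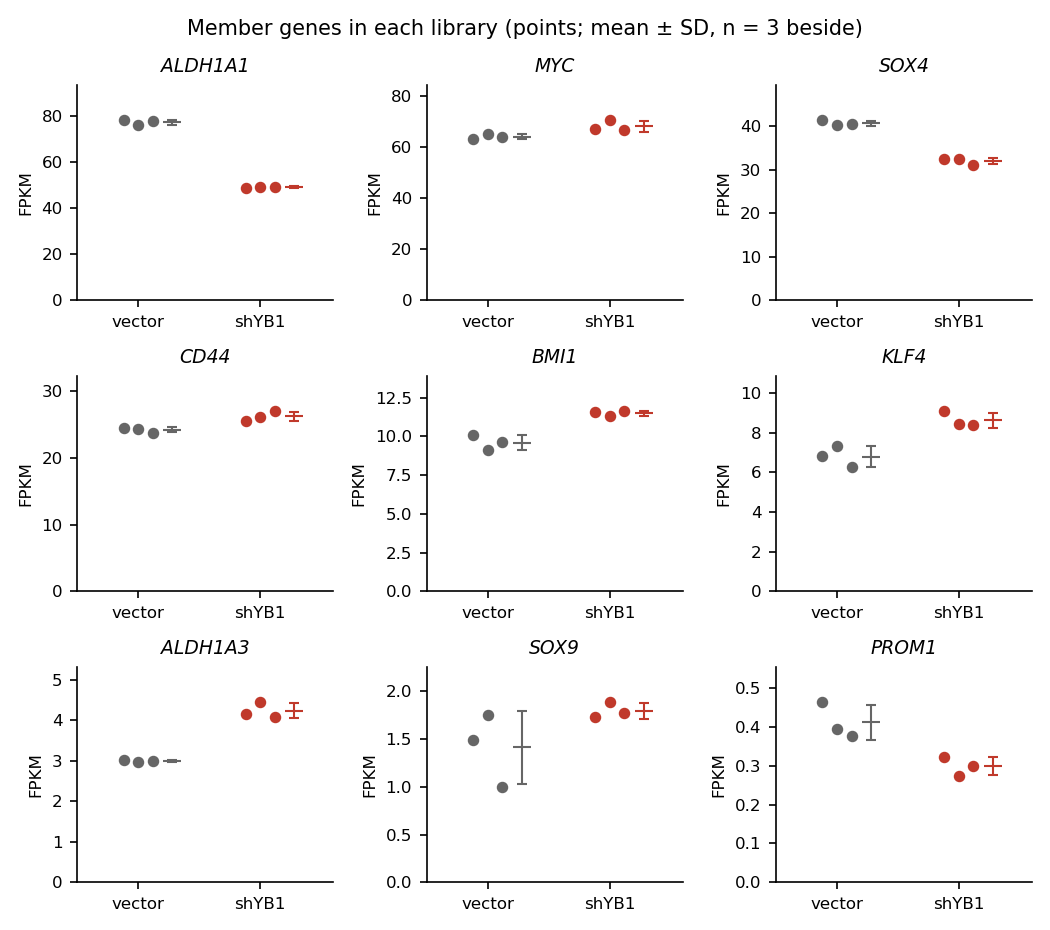
FPKM of the 9 member genes in each library (points; horizontal axis, vector in grey and shYB1 in red; vertical axis, FPKM from 0), with the mean and SD of 3 libraries beside them. The groups are apart for ALDH1A1, SOX4, ALDH1A3, KLF4 and BMI1, close for CD44 and MYC, overlapping for SOX9, and PROM1 is below 0.5 FPKM throughout.

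The aldehyde dehydrogenases moved in opposite directions. ALDH1A1 oxidizes retinaldehyde to retinoic acid and is the form most often tied to the aldehyde dehydrogenase activity of stem-like cells, and ALDH1A3 catalyses the same reaction. ALDH1A1 mRNA was at 78.0, 76.0 and 77.8 FPKM in vector cells and at 48.6, 49.3 and 49.3 FPKM in shYB1 cells. The 3 shYB1 libraries were nearly equal, and all lay far below the vector libraries. Mean levels were 77.3 ± 1.14 FPKM (SD, n = 3) in vector and 49.1 ± 0.405 FPKM (SD, n = 3) in shYB1 cells, and the log2 fold change was −0.65 (SE 0.031, 95% interval −0.72 to −0.59, adjusted p = 8.38e-07 by limma). This placed ALDH1A1 at rank 55 of 10439 genes, counted from the most negative fold change. ALDH1A3 mRNA was scarce in comparison, at 3.03, 2.99 and 3.005 FPKM in vector cells and 4.17, 4.44 and 4.10 FPKM in shYB1 cells. Its shYB1 libraries were all above its vector libraries, which hardly differed from each other. ALDH1A3 had a log2 fold change of 0.48 (SE 0.065, 95% interval 0.34 to 0.62, adjusted p = 0.000639 by limma), at rank 148 from the most positive.

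Per length of transcript, the balance between both enzymes shifted. The ratio of ALDH1A1 to ALDH1A3 FPKM was 25.8, 25.4 and 25.9 in vector cells and 11.7, 11.1 and 12.02 in shYB1 cells. No shYB1 library came near a vector library (p = 0.1 by a two-sided exact permutation test, which cannot go lower with 3 libraries against 3). ALDH1A1 was still the more abundant form in every library. The sum of both was 80.3 ± 1.15 FPKM (SD, n = 3) in vector and 53.3 ± 0.502 FPKM (SD, n = 3) in shYB1 cells, so the gain of ALDH1A3 was small beside the loss of ALDH1A1.

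Genes around both enzymes were mostly not called. Of 24 other aldehyde dehydrogenases and genes of retinoid synthesis, binding, breakdown and response, 6 were listed at 0 in all libraries and 13 were tested, of which 1 was lower and 0 were higher by limma (at an unadjusted p under 0.05, 1 lower and 1 higher). The share called was 7.69% beside 25.7% of all genes, and the median log2 fold change was 0.01. With a replicate block 1 was lower and 1 higher. The lower gene was DHRS3, a reductase that turns retinaldehyde back into retinol, and it was also the most abundant of the list. DHRS3 mRNA was at 33.8, 31.8 and 35.6 FPKM in vector cells and at 25.9, 26.1 and 26.6 FPKM in shYB1 cells. Its vector libraries were spread over a wider range than its shYB1 libraries, and the groups did not overlap. DHRS3 fell by 0.36 on the log2 scale (SE 0.045, adjusted p = 0.000401 by limma).

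SOX4 and SOX9 belong to the SOX family, whose proteins bind DNA through a high mobility group domain. SOX4 acts in progenitor cells of many tissues, and SOX9 marks progenitors and regenerating tubular cells of the kidney. SOX4 mRNA was at 41.2, 40.3 and 40.4 FPKM in vector cells and at 32.4, 32.3 and 31.1 FPKM in shYB1 cells. Each group was tight, and the highest shYB1 library was below the lowest vector library. SOX4 had a log2 fold change of −0.35 (SE 0.035, 95% interval −0.42 to −0.27, adjusted p = 0.000107 by limma), at rank 205 from the most negative. SOX9 mRNA was low, at 1.49, 1.75 and 0.995 FPKM in vector cells and 1.72, 1.88 and 1.77 FPKM in shYB1 cells. The vector libraries spread widely, vector replicate 3 was the lowest, and vector replicate 2 lay within the shYB1 range. The estimate for SOX9 was 0.36 with a standard error of 0.17 and a 95% interval of −0.02 to 0.74, and it was not called (adjusted p = 0.149 by limma). Without vector replicate 2 the estimate was 0.52 and passed the threshold (adjusted p = 0.042 by limma), within a range of 0.042 to 0.371 over all alternatives, so a single library decides the SOX9 call. Without vector replicate 3 the estimate was 0.14 (adjusted p = 0.371 by limma).

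Only a few other SOX genes were measurable. Of 18 other SOX genes in the table, 10 were listed at 0 in all libraries and 3 reached the filter, namely SOX12, SOX13 and SOX2. None was called, with 0 lower and 0 higher by limma (0 and 0 also at an unadjusted p under 0.05), beside 25.7% of all genes called, and a count over 3 genes says little. SOX12, of the same subgroup as SOX4, was at 9.80 to 11.3 FPKM. SOX2, a pluripotency factor, was at 2.53, 2.61 and 2.53 FPKM in vector cells and at 2.40, 2.57 and 2.28 FPKM in shYB1 cells, and its groups overlapped. SOX4 was the most abundant SOX gene in these cells per length of transcript, and the ratio of SOX4 to SOX9 FPKM was 27.7, 23.1 and 40.6 in vector cells and 18.8, 17.2 and 17.6 in shYB1 cells. That ratio was lower in every shYB1 library than in any vector library (exact permutation test, p = 0.1), and vector replicate 3, with its low SOX9, stood highest.

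**Figure D2:**
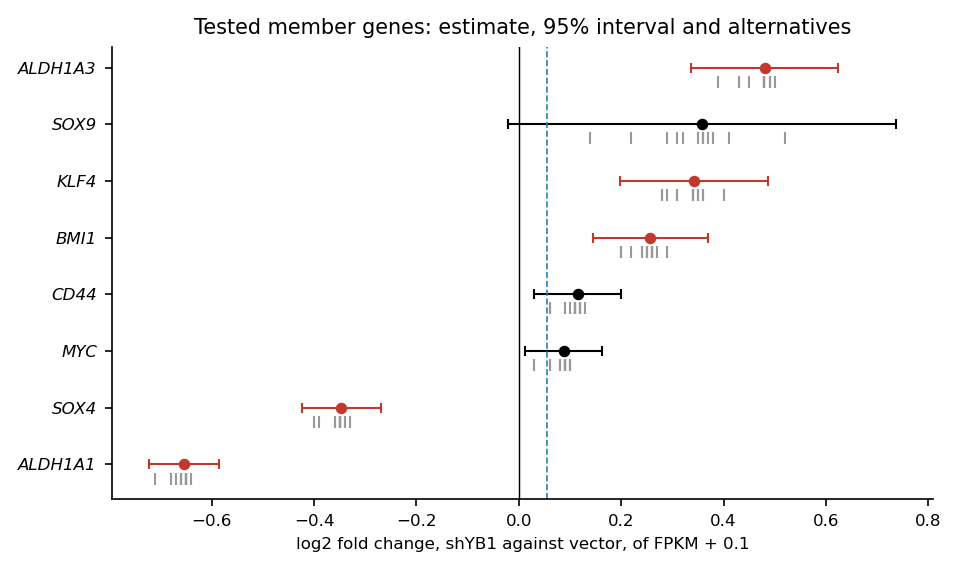
Log2 fold changes of the 8 tested member genes on the log2(FPKM + 0.1) scale (horizontal axis, shYB1 against vector; genes on the vertical axis) with 95% intervals, red where called and black where not. Grey ticks give the estimate under each alternative setting and the dashed line the median of all genes tested (0.06); ALDH1A1 and SOX4 lie to the left of 0 and the other members to the right.

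KLF4 is a zinc finger transcription factor that, together with POU5F1, SOX2 and MYC, can reprogram differentiated cells to pluripotency, and in epithelia it accompanies differentiation and growth arrest. KLF4 mRNA was at 6.82, 7.31 and 6.26 FPKM in vector cells and at 9.07, 8.43 and 8.39 FPKM in shYB1 cells. The lowest shYB1 library was above the highest vector library. KLF4 had a log2 fold change of 0.34 (SE 0.065, 95% interval 0.20 to 0.49, adjusted p = 0.00431 by limma). KLF4 was therefore higher in shYB1 cells while SOX4 was lower.

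The KLF family held 16 other genes in the table, of which 12 were tested, 1 was lower and 4 were higher, so that 41.7% were called beside 25.7% of all genes. The median log2 fold change of the family was 0.05. KLF8, a repressor, fell by 0.51 on the log2 scale (SE 0.10, adjusted p = 0.00514 by limma), from 1.25 ± 0.0301 to 0.849 ± 0.0533 FPKM (SD, n = 3). Its mean over all libraries was 1.05 FPKM, and it passed the filter of 1 FPKM only through the vector group. In the fit with no filter KLF8 was also called lower (adjusted p = 0.0116 by limma). With a pseudocount of 1 the log2 fold change of KLF8 was −0.28, still called, and that of KLF12 was 0.23. KLF12 (0.37), KLF7 (0.33) and KLF5 (0.25) had the largest positive log2 fold changes among those called, with adjusted p of 0.0147, 0.0107 and 0.0471 by limma. KLF5 lost its call in 9 of 14 alternatives, including median-of-ratios rescaling and quantile normalization. KLF12 lost its call in 3 of 14, and KLF7 was called in all of its alternatives. KLF10, an early response gene to TGF-beta and the most abundant of the family, was at 57.6 to 59.6 FPKM and was not called. The count of 4 higher KLF genes was fragile: it was 2 with median-of-ratios rescaling or quantile normalization, 2 without any one of the vector libraries, and 1 without shYB1 replicate 1 or shYB1 replicate 2.

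BMI1 is a ring finger subunit of Polycomb repressive complex 1, which marks histone H2A with ubiquitin and keeps genes silent, and it is known for keeping stem cells dividing. BMI1 mRNA was at 10.1, 9.13 and 9.62 FPKM in vector cells and at 11.6, 11.3 and 11.6 FPKM in shYB1 cells. All shYB1 libraries were above all vector libraries, by a margin larger than the spread within either group. BMI1 had a log2 fold change of 0.26 (SE 0.050, 95% interval 0.15 to 0.37, adjusted p = 0.0048 by limma). BMI1 overlaps a read-through gene, COMMD3-BMI1, with which it shares 21.3% of its 50-base words, so its level is uncertain by what that transcript contributes. COMMD3-BMI1 was itself listed near 0, at no more than 3.24e-05 FPKM, and the upstream gene COMMD3 was between 12.4 and 13.8 FPKM with overlapping groups and was not called.

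Other subunits of the complex were called about as often as all genes. Of 20 listed genes, 19 were tested, of which 0 were lower and 4 were higher by limma (1 lower and 8 higher at an unadjusted p under 0.05), a share called of 21.1% beside 25.7% of all genes, with a median log2 fold change of 0.10. Median-of-ratios rescaling gave 2 lower and 3 higher, with a median of 0.04, and with quantile normalization 2 were lower and 3 higher, with a median of 0.06. PCGF5 and PCGF6, which take the place of BMI1 in variant forms of the complex, were the members with the largest gains. PCGF5 was at 5.96, 6.06 and 6.403 FPKM in vector cells and at 8.51, 7.77 and 8.16 FPKM in shYB1 cells. The groups of PCGF5 were well apart, and the log2 fold change was 0.40 (SE 0.057, adjusted p = 0.00083 by limma). PCGF6 rose by 0.39 (adjusted p = 0.00396 by limma), with 9.57% of its 50-base words in transcripts of other genes, most of them in those of the pseudogene PCGF7P. RYBP, a subunit of the variant forms, rose by 0.23 (adjusted p = 0.00418 by limma). PHC2, of the canonical form and the most abundant subunit at 71.4 FPKM, was not called.

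MYC drives growth, ribosome production and metabolism and is held in balance by a network of partners and antagonists, many of which dimerize with MAX. MYC mRNA was at 63.1, 64.8 and 64.0 FPKM in vector cells and at 67.0, 70.3 and 66.6 FPKM in shYB1 cells. The shYB1 libraries were all slightly above the vector libraries. The estimate was 0.09 on the log2 scale (SE 0.034, 95% interval 0.01 to 0.16), near the median of all genes, and it was not called (adjusted p = 0.0841 by limma). The size of the estimate depended on the scaling, at 0.03 with median-of-ratios rescaling and 0.06 with quantile normalization (adjusted p = 0.490 and 0.199 by limma).

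In the MYC network, 12 genes were in the table, 9 were tested and 0 were lower or higher by limma (1 lower, MXD1, and 0 higher at an unadjusted p under 0.05) beside 25.7% of all genes called, with a median log2 fold change of −0.04. MXD1, an antagonist of MYC, was called lower with median-of-ratios rescaling and with quantile normalization (adjusted p = 0.0333 and 0.0285 by limma). MYCN was listed at 0 in all libraries, and MYCL, another MYC family gene, was at 0.717 to 0.933 FPKM, which leaves MYC as the main family member here. MLXIP, the most abundant of the network, was at 18.9 to 19.8 FPKM.

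Many known target genes of MYC were called although MYC itself was not. Of 23 listed genes, 22 were tested, and 16 were higher and 0 were lower by limma (20 higher and 0 lower at an unadjusted p under 0.05, beside 28.2% and 10.8% of all genes), a share called of 72.7% beside 18.7% of all genes called higher. The median log2 fold change was 0.25, and with median-of-ratios rescaling it was 0.20 with 16 genes higher. These targets were chosen with earlier results of these data known, and the count describes the list only. The largest gains among the tested targets were those of NOP16, BOP1 and RRS1. NOP16, a nucleolar protein, was at 2.36, 2.31 and 2.36 FPKM in vector cells and at 2.97, 3.67 and 4.39 FPKM in shYB1 cells. Its vector libraries were nearly equal, its shYB1 libraries spread widely, and the groups did not overlap. NOP16 had a log2 fold change of 0.61 (SE 0.12, adjusted p = 0.00546 by limma).

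BOP1, which processes ribosomal RNA for the large subunit, was at 10.9, 11.0 and 14.2 FPKM in vector cells and at 17.8, 16.6 and 18.0 FPKM in shYB1 cells. Vector replicate 3 stood above the other vector libraries but below all shYB1 libraries. BOP1 had a log2 fold change of 0.55 (SE 0.094, adjusted p = 0.00336 by limma). RRS1, a ribosome assembly factor, rose from 7.80 ± 0.335 to 10.8 ± 0.588 FPKM (SD, n = 3), a log2 fold change of 0.47 (adjusted p = 0.00034 by limma). The targets not called were ODC1, LDHA, FBL, TERT, GNL3 and POLR1B, and among them LDHA, a glycolytic enzyme, was the most abundant of the list at 360 FPKM. LDHA had an estimate of 0.09, which was 0.03 with median-of-ratios rescaling and was called with a common total (0.08, adjusted p = 0.0193 by limma) and with quantile normalization (0.13, adjusted p = 0.00338 by limma), and GNL3 was called with a common total (adjusted p = 0.0434 by limma). TERT, the catalytic subunit of telomerase, had an estimate of −0.20 with a 95% interval of −0.44 to 0.04. NPM1, HSPD1, PA2G4 and RRS1 share 18.9%, 13.2%, 15.1% and 8.75% of their 50-base words with transcripts of other genes, so their levels are uncertain.

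**Figure D3:**
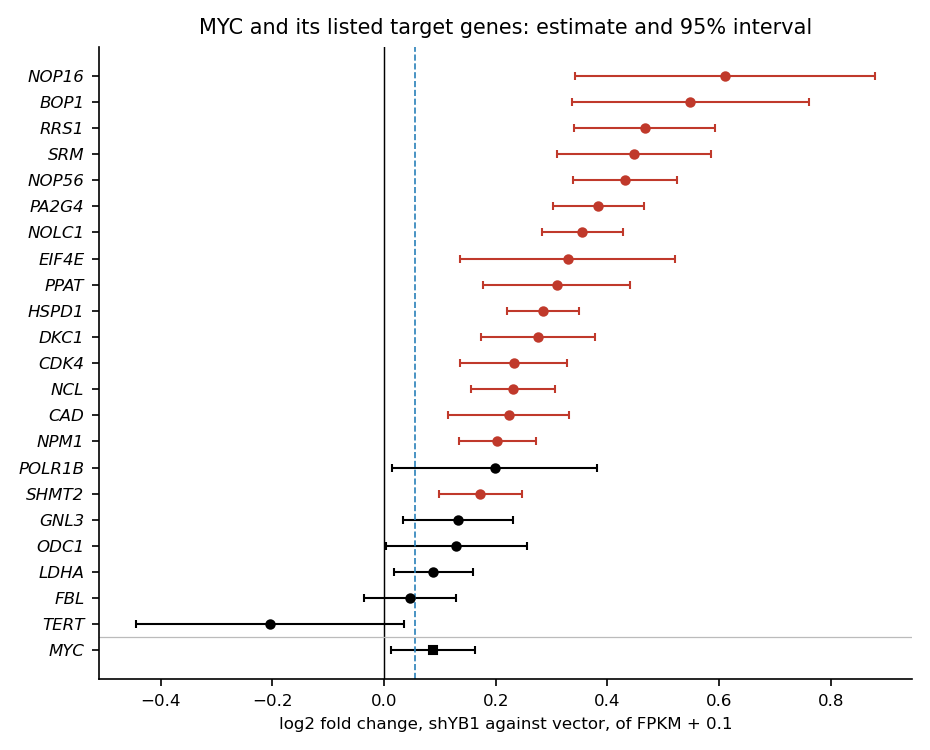
Log2 fold changes on the log2(FPKM + 0.1) scale (horizontal axis, shYB1 against vector) with 95% intervals for MYC (square, lowest line) and its 22 tested target genes (circles), red where called. The dashed line is the median of all genes tested (0.06); 16 targets are called to the right of 0, and MYC lies near the dashed line.

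CD44 binds hyaluronan on the outside of the cell and is linked to the cell cortex on the inside through ezrin, radixin and moesin. CD44 mRNA was at 24.5, 24.4 and 23.8 FPKM in vector cells and at 25.5, 26.2 and 27.0 FPKM in shYB1 cells. The shYB1 libraries all lay slightly above the vector libraries. The estimate was 0.11 (SE 0.038, 95% interval 0.03 to 0.20), and CD44 was just short of the threshold (adjusted p = 0.0501 by limma). The estimate was 0.06 with median-of-ratios rescaling and 0.06 with quantile normalization (adjusted p = 0.293 and 0.339 by limma). With a filter at 5 FPKM, where fewer genes are tested, CD44 passed it (adjusted p = 0.0396 by limma), and over all alternatives the adjusted p lay between 0.0396 and 0.339. FPKM of whole genes do not tell the splice forms of CD44 apart.

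Genes of hyaluronan synthesis, breakdown and binding, of CD44 ligands and of its link to the cortex changed in both directions. Of 19 listed genes, 13 were tested, of which 4 were lower and 5 higher, a share called of 69.2% beside 25.7% of all genes, with a median log2 fold change of 0.07. SPP1 (osteopontin), a secreted ligand of CD44 and of integrins, was at 1233, 1233 and 1271 FPKM in vector cells and at 866, 892 and 894 FPKM in shYB1 cells. It was the most abundant gene of the list, and every shYB1 library was below every vector library. The log2 fold change of SPP1 was −0.49 (SE 0.030, adjusted p = 3.92e-06 by limma). CEMIP2, a membrane protein of hyaluronan breakdown, fell by 0.28 (adjusted p = 0.00256 by limma), and MMP14, a membrane protease that can cut CD44 off the cell surface, fell by 0.22 (adjusted p = 0.000971 by limma). The cortical linkers were called in both directions. EZR, which encodes ezrin, rose by 0.22 (adjusted p = 0.00225 by limma). MSN, which encodes moesin and was the most abundant of these linkers at 186 FPKM, fell by 0.16 (adjusted p = 0.0042 by limma). RDX, which encodes radixin, was called higher at 0.13 (adjusted p = 0.0371 by limma), but not with median-of-ratios rescaling (0.07, adjusted p = 0.22), a common total (0.12, adjusted p = 0.0719) or quantile normalization (0.06, adjusted p = 0.298).

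Hyaluronan synthase HAS3 (0.22, adjusted p = 0.0258 by limma) and the hyaluronidase gene HYAL3 (0.58, adjusted p = 0.0365 by limma) were also called higher, but HAS3 lost its call in 8 of 15 alternatives (adjusted p of 0.0138 to 0.0974 by limma) and HYAL3 in 8 of 14 (0.00938 to 0.120), including median-of-ratios rescaling and quantile normalization for both. HYAL3 was at 1.53, 1.32 and 1.95 FPKM in vector cells and at 1.86, 2.86 and 2.64 FPKM in shYB1 cells. Vector replicate 3 was above shYB1 replicate 1, so the groups of HYAL3 overlap. Both counts moved with the processing: 6 genes were lower and 1 higher with median-of-ratios rescaling, and 5 were lower and 1 higher with quantile normalization. With any one library left out 4 were lower and 1 to 3 higher.

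PROM1 mRNA was scarce. It was at 0.462, 0.394 and 0.377 FPKM in vector cells and at 0.321, 0.274 and 0.299 FPKM in shYB1 cells. The shYB1 libraries were each below every vector library, at levels that did not reach the filter. The difference of the log2 means was −0.36 with a pooled SD of 0.107, and in a fit of 15988 genes without the filter PROM1 was not called (adjusted p = 0.127 by limma).

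Other markers used for stem-like or tumour-initiating cells behaved unequally. Of 19 such genes, 2 were listed at 0 in all libraries, among them the pluripotency factor NANOG, and 7 were tested, of which 1 was lower and 3 were higher, 57.1% called beside 25.7% of all genes, with a median log2 fold change of −0.02. With median-of-ratios rescaling or quantile normalization 2 were lower and 2 higher, and with a replicate block or without shYB1 replicate 2, 2 were lower. NT5E (CD73), a surface enzyme that makes adenosine and a mesenchymal stem cell marker, was at 20.0, 21.5 and 20.6 FPKM in vector cells and at 33.0, 34.3 and 32.4 FPKM in shYB1 cells. Its shYB1 libraries stood well above its vector libraries. The log2 fold change of NT5E was 0.68 (SE 0.042, adjusted p = 4.40e-06 by limma), at rank 37 from the most positive of all genes tested. ITGA6, the laminin-binding integrin alpha 6, rose by 0.47 (SE 0.078, adjusted p = 0.00208 by limma), from 2.88 ± 0.241 to 4.01 ± 0.173 FPKM (SD, n = 3).

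CD24, a surface glycoprotein that in the kidney is found together with PROM1 on scattered tubular cells, was at 1059, 1101 and 1114 FPKM in vector cells and at 806, 834 and 840 FPKM in shYB1 cells. The groups of CD24 were far apart relative to the spread in each. CD24 fell by 0.40 (SE 0.033, adjusted p = 2.85e-05 by limma), and 4.95% of its 50-base words occur in other genes. POU5F1 was called higher at 0.21 (adjusted p = 0.018 by limma), but it shares 31.6% of its 50-base words with other genes, POU5F1B above all, it was not called with median-of-ratios rescaling (adjusted p = 0.0598 by limma, in a range of 0.0133 to 0.0679 over its alternatives), and its level is uncertain. NT5E and CD24, both surface markers, thus moved in opposite directions, as ALDH1A3 and ALDH1A1 did.

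**Figure D4:**
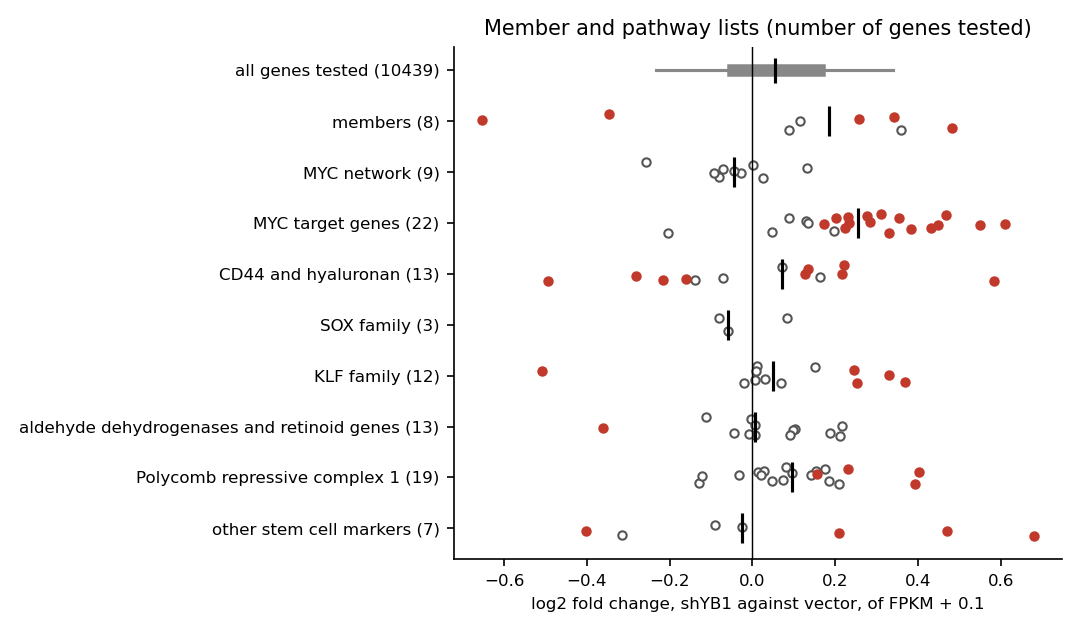
Log2 fold changes on the log2(FPKM + 0.1) scale (horizontal axis, shYB1 against vector) of the tested genes of each list (vertical axis, number tested in parentheses), red where called and open where not, with a black bar at the median; for all genes the grey bars span the middle 50% and the middle 90%. The MYC target genes have the highest median (0.25), and the lowest and highest member values are those of ALDH1A1 (−0.65) and ALDH1A3 (0.48); with median-of-ratios rescaling several genes that were not called change sign.

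The members spanned a wide range of levels. In FPKM, a scale per transcript length, the order of mean levels in vector cells was ALDH1A1, MYC, SOX4, CD44, BMI1, KLF4, ALDH1A3, SOX9 and PROM1, from 77.3 down to 0.411. In shYB1 cells MYC came before ALDH1A1, at 68.0 against 49.1, and the rest kept their places. Libraries of neighbouring genes in the order did not overlap in either group, so each step was larger than the spread of 3 libraries. ALDH1A1 was in the upper part of the table, with 96.7% of listed genes at or below its mean, and PROM1 was at 42.1%.

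Across the 6 libraries, the genes whose centred log2 pattern was nearest to that of a member were found for CD44, MYC and SOX4. The nearest to CD44 were SLC2A3, a glucose transporter, HJURP, a histone chaperone of centromeres, and RECQL4, a DNA helicase, with root mean square differences of 0.00707, 0.0133 and 0.0136 on the log2 scale over 6 libraries. The nearest to MYC were COPS7B, of the COP9 signalosome, SUPT6H, a histone chaperone of transcription, and KTN1, which encodes kinectin, at 0.0118, 0.0128 and 0.0129. The nearest to SOX4 were ATP1B1, the beta subunit of the sodium pump, B4GALT1, a galactosyltransferase, and MAL2, a protein of transcytosis, at 0.017, 0.0184 and 0.0196. With 3 libraries in each of 2 groups such a pattern is mostly the group difference.

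The members share little by position. GENCODE release 29 places KLF4 at chr9:107484852-107490482 and ALDH1A1 at chr9:72900662-73080442, both on the minus strand, and the other members listed here on chromosomes of their own: CD44 at chr11:35138870-35232402, SOX4 at chr6:21592768-21598619, SOX9 at chr17:72121020-72126420, ALDH1A3 at chr15:100877714-100916626 and BMI1 at chr10:22321211-22331484 on the plus strand, and PROM1 at chr4:15963076-16084378 on the minus strand of GRCh38. The spans of CD44, SOX4, SOX9, ALDH1A1 and ALDH1A3, introns included, are overlapped by genes on the opposite strand (for ALDH1A1 the pseudogene CYP1D1P). Since the use of strand in counting is not stated, reads from any exon stretch that both genes share cannot be told apart. Whether exons overlap was not examined. By the pathways given in the table, CD44, MYC, SOX4 and BMI1 carry the KEGG pathway of microRNAs in cancer (150 genes) and MYC, KLF4 and BMI1 that of the regulation of stem cell pluripotency (139 genes), so that genes called lower, called higher and not called stand side by side in the first of them.

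YB1 is named for the Y-box, a DNA element with the core CCAAT, read as ATTGG on the other strand, and MYC binds the E-box CACGTG, which reads the same on both strands. RefSeq promoter windows of GRCh38.p14, from 250 bases before to 50 after a transcription start, are described for 7 of the 9 members, matched by symbol. No window was found for SOX9, and the promoter of MYC was not searched and is not reported here. The motifs do not overlap in sequence. The Y-box core was in the windows of 4 members, SOX4, ALDH1A1, ALDH1A3 and PROM1, beside 39.7% of the 27305 genes with a window and 34.6% of all 35116 windows. The E-box was in those of 2 members, KLF4 and BMI1, beside 8.77% of genes and 7.26% of all windows, and CD44 had neither. The stretches printed here show the matches of SOX4 and of both ALDH1A genes, since these genes had the largest falls and the largest gain among the tested members, with the motif in capitals and 10 bases on each side, 5′ to 3′ on the strand of the gene. SOX4 had 4 cores in 1 window, where 0.991% of all windows hold 4 or more, at chr6:21593560-21593584, chr6:21593627-21593651, chr6:21593684-21593708 and chr6:21593731-21593755 on the plus strand, beginning 181, 114, 57 and 10 bases before the start and annotated in GENCODE as exon with UTR of a longer SOX4 transcript.
SOX4 at 181: tgctctgtaaATTGGaatgaggtca
SOX4 at 114: gggttccaagCCAATgggaagcccg
SOX4 at 57: acagcagctgATTGGctgcagccaa
SOX4 at 10: gcgaggcggaATTGGggtctgctct
ALDH1A1 at 74: gtttgttcatCCAATcgtatccgag
ALDH1A3 at 71: ggtcccgcagCCAATtaggcggccc
The ALDH1A1 match lies at chr9:72953113-72953137 on the minus strand, 74 bases before the start and in an intron of a longer annotated transcript. The ALDH1A3 match lies at chr15:100879750-100879774 on the plus strand, 71 bases before the start and in an annotated exon with UTR. ALDH1A1, which fell, and ALDH1A3, which rose, thus both hold the core at nearly the same distance from the start and on the same strand relative to the gene.

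The E-boxes were in the windows of KLF4 and BMI1 and not in that of ALDH1A3, all called higher. They are shown because neither KLF4 nor BMI1 holds a Y-box core. The KLF4 match lies at chr9:107489911-107489936 on the minus strand, 157 bases before the start, in an intron. The BMI1 match lies at chr10:22321019-22321044 on the plus strand, 70 bases before the start and outside the annotated BMI1 gene.
KLF4 at 157: cccccgccccCACGTGcgccgagttt
BMI1 at 70: atgaggggagCACGTGacccgctggg
In PROM1, 1 of 4 windows held a Y-box core, and in BMI1, 1 of 2 windows held the E-box. These are matches of letters in a window and no record of binding.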

How the data were processed

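RNA of 3 vector and 3 shYB1 libraries of 786-O cells was analysed from the FPKM that the authors deposited for 20030 genes, and 0 per-library columns were left out. The columns headed "con" were taken as vector. The submitters' processing notes name Trimmomatic, HISAT2, Cufflinks, HTSeq, DESeq and GRCh38, without versions or roles. Depth is unknown from FPKM. The members and lists were chosen with earlier results of these data known.

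Genes whose mean reached 1 FPKM were compared on log2(FPKM + 0.1) with limma 3.58.1 in R 4.3.3 (lmFit, eBayes with trend and robust), as a two-sided test with p adjusted by Benjamini-Hochberg over these genes. This step was tested on simulated data. Single ratios were compared with two-sided exact permutation tests. The selection criteria of the methods (fold change of 2, p under 0.05, adjustment not stated) were applied here to the unadjusted p. Named genes are the members and YBX1, from each of 8 lists the genes with the 3 largest positive and 3 largest negative log2 fold changes among those called and the most abundant gene, and the 3 genes nearest in pattern to CD44, MYC and SOX4. Genes named outside this rule, such as MXD1, MYCL, MSN, RDX, SOX2, TERT, NANOG and the uncalled targets, were chosen after their values were seen. Of the lists, 1 symbol was not found in the table.

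Alternatives were pseudocounts of 1 and 0.01, no filter or a filter at 5 FPKM, median-of-ratios rescaling, a common total, quantile normalization, a variance prior without trend, a replicate block, each library left out, and a fold change of 1.5. Positions are from GENCODE 29 and promoters from RefSeq (GRCh38.p14). Shared sequence was counted as 50-base words in GENCODE transcripts. SciPy 1.17.1, pandas 2.3.3, NumPy 2.4.6 and matplotlib 3.10.9 under Python 3.11.15 were used. Protein sequences were not analysed here. Values of some marker genes are not reported here.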

Additional observations from a re-analysis of the deposited data

How the results depend on the processing

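The 5 called members and YBX1 kept their direction and their call under every alternative in which they were tested, with adjusted p by limma of 2.90e-08 to 0.000324 for ALDH1A1, 4.08e-05 to 0.00316 for SOX4, 0.000471 to 0.00439 for ALDH1A3, 0.00221 to 0.0203 for KLF4 and 0.00287 to 0.0206 for BMI1. ALDH1A3, at a mean of 3.62 FPKM, was not tested with the filter at 5 FPKM. MYC was not called in any alternative (adjusted p of 0.0576 to 0.490 by limma). With 1 library left out, log2 fold changes lay between −0.67 and −0.65 for ALDH1A1, −0.36 and −0.33 for SOX4, 0.45 and 0.50 for ALDH1A3, 0.28 and 0.40 for KLF4, 0.22 and 0.29 for BMI1, 0.09 and 0.13 for CD44, 0.06 and 0.10 for MYC and 0.14 and 0.52 for SOX9, which was called only without vector replicate 2, while CD44 (0.11) was called only with the filter at 5 FPKM, where fewer genes are tested. With a fold change limit of 1.5, 1 member was lower by the screening criteria, beside 0.575% of all genes. Over all genes, 1253 were lower and 1192 higher with median-of-ratios rescaling, and 1183 and 1267 with quantile normalization, both of which bring the median of all genes close to 0. With either, 1 gene of the MYC network was lower, as without trend, the CD44 and hyaluronan list had 1 higher (1 also without trend, 3 with no filter or a common total, 1 to 3 with 1 library left out), the KLF family 2 higher (2 also with no filter or without trend, 1 to 3 with 1 library left out), Polycomb repressive complex 1 had 2 lower, and the other stem cell markers 2 lower (1 to 2 with 1 library left out). With the filter at 5 FPKM the KLF family had 0 lower and 1 higher, since fewer of its genes were tested. Libraries with the same replicate number did not deviate together (correlations of −0.169 to −0.00824 over 3 pairs). Pairs with different numbers had −0.0507 to 0.113 over 6 pairs. Values were centred on each group's mean, which ties these correlations to each other, so the 6 pairs are no independent reference. With the replicate block 1 aldehyde dehydrogenase or retinoid gene was higher (0 to 1 with 1 library left out) and 2 other stem cell markers were lower. Over all genes 760 were then lower and 2074 higher. The PROM1 difference was −0.12 with a pseudocount of 1, which compresses low values. Where no reason is given, the cause was not tested. Of 307 values of 21 named list genes under alternatives 32 were no longer called and none changed sign, and those were of HYAL3 (8 of 14), HAS3 (8 of 15), KLF5 (9 of 14), KLF12 (3 of 14) and POU5F1 (4 of 15). Depth is unknown, so no detection limit can be given for genes listed at 0.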

Other observations

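Among the markers of renal carcinoma cells, CDH6, a cadherin of the developing kidney, was at 47.6, 48.4 and 47.7 FPKM in vector cells and at 33.3, 32.8 and 32.8 FPKM in shYB1 cells. The groups were far apart, and the log2 fold change was −0.54 by limma, of a size between those of ALDH1A1 and SOX4. PAX8 and VIM were not called, and their estimates of 0.01 and 0.04 turned to −0.05 and −0.02 with median-of-ratios rescaling. PAX2 was called higher at 0.15, and it was not called after median-of-ratios rescaling (adjusted p = 0.159 by limma).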
